A study of Mus musculus with 9 samples.

Results

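The 7 genes described here are Plau, Plaur, Plat, Serpine2, Serpinb5, Serpinf1 and Serpinh1, taken by name from the 54456 gene names of the deposited count table. They cover the plasminogen activators, the urokinase receptor and a set of serpins. All 7 were present and all 7 passed the filter on low counts. RNA came from wild-type mouse mammary epithelium, whose cells were sorted by flow cytometry into basal and luminal cells and then aggregated. Every aggregate lay in 80% Matrigel about 100 µm from a heparin sulfate bead soaked in 100 µg/mL FGF10, and was collected after 56 h of migration by the treatment label (55 h by the sample titles). The 3 groups were basal cells only, luminal cells only and a 50% mixture of both, with 3 libraries each. No aggregate without FGF10 was measured, animals' ages and numbers are not given in the labels, and it is not said whether replicates stem from different animals or cultures, so p-values measure only the spread between these libraries. By its design text the series asks about the roles of the basal and the luminal cell type when the aggregates migrate collectively.

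Plasminogen is a circulating zymogen that is cut to plasmin, a protease of fibrin and of matrix proteins. The cut is made by urokinase (Plau), which is held at the cell surface by its receptor (Plaur), or by tissue plasminogen activator (Plat). Serpins are a protein family named for serine protease inhibitors, which trap their target protease through an exposed loop. Serpine2 (protease nexin 1) inhibits both activators and thrombin, whereas Serpinb5 (maspin, a protein of mammary myoepithelium studied as a tumour suppressor), Serpinf1 (pigment epithelium-derived factor, a secreted antiangiogenic protein) and Serpinh1 (the collagen chaperone HSP47 of the endoplasmic reticulum) have the serpin fold without acting as such inhibitors. Of the 4 serpins only Serpine2 is thus an inhibitor of the activators, and the name of the set is wider than the pathway.

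In the deposited table the genes lie, on mouse build mm39, at chromosome 14, 20886728 to 20893453 (Plau), chromosome 7, 24161909 to 24175393 (Plaur), and chromosome 8, 23247743 to 23272860 (Plat), all on the plus strand. Serpine2 lies on chromosome 1, 79771914 to 79838897 (minus strand), and Serpinb5 on the same chromosome, 106788903 to 106811078 (plus strand). The other members are Serpinf1 on chromosome 11, 75300595 to 75313527, and Serpinh1 on chromosome 7, 98994583 to 99002446, both on the minus strand. None of the 7 shares an exon base with another gene name of the table. Reads of an overlapping gene therefore do not enter their counts, although counting did not use strand.

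Promoter sequences are shown for the 3 serpin genes that were lower in luminal than in basal aggregates and had an entry in the RefSeq promoter table (build GRCm38.p6, which differs from the build of the counts). Of the 7 genes 5 had an entry. Each line gives the 250 bases before the transcript start, 5′ to 3′ on the gene's strand, at chr11:75422624-75422873, chr1:79858666-79858915 and chr7:99353240-99353489 in turn, all on the minus strand. Capitals mark matches to the GC box GGGCGG, the AP-1 motif TGANTCA or the TATA box TATAAA on either strand, with overlapping matches counted separately.
Serpinf1: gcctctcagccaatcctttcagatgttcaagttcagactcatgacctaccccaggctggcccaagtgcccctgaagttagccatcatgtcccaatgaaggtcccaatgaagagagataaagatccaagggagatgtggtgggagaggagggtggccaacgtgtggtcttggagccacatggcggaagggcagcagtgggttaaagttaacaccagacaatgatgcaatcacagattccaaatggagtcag
Serpine2: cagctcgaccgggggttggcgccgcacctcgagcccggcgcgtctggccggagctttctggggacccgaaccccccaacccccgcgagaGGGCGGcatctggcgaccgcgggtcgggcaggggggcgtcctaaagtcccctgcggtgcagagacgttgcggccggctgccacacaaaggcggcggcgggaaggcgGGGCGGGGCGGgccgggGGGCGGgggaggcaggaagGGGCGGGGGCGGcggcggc
Serpinh1: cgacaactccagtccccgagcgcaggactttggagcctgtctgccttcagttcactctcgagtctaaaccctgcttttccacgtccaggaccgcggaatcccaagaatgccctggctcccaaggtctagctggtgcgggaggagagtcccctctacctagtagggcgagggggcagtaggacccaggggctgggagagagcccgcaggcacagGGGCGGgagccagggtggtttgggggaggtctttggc
The 3 windows differ in composition. The Serpine2 window is 78.8% G and C with 34 CpG dinucleotides and 6 GC boxes, the Serpinh1 window is 63.6% G and C with 11 CpG and 1 GC box, and the Serpinf1 window is 51.6% G and C with 2 CpG and no match to any of the 3 motifs. Over 32851 windows of the table the median was 52.4% G and C and 6 CpG, and 32.7% held a GC box, 6.75% the AP-1 motif and 12.4% the TATA box. An AP-1 match stood in the windows of Plaur and Serpinb5 (1 each), which also held 3 and 1 GC boxes. A match is only a match of letters.

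The libraries held 15585324 to 19164405 counts, and 3 counts, the limit below which a gene at 0 may lie, correspond to 0.152 to 0.187 CPM (counts scaled to library size, here with edgeR's TMM normalisation). These limits cover counting error only. Basal markers summed to 10740 to 12210 CPM in basal, 6787 to 8031 CPM in mixed and 1689 to 3055 CPM in luminal libraries, and luminal markers to 3971 to 4409, 11190 to 13210 and 9952 to 13900 CPM. The luminal marker Krt19 alone averaged 4537 CPM in mixed, 1336 CPM in luminal and 856.3 CPM in basal libraries. Over the 13 luminal markers the median log2 difference of mixed minus luminal was -0.35. By the prefix of their column names the libraries formed 3 series: A with the 3 mixed libraries and basal 2, B with basal 1, basal 3 and luminal 1, and C with luminal 2 and luminal 3. Basal 2 stood apart from the other basal libraries (r = 0.927 with basal 1 and 0.936 with basal 3, against 0.986 between these, across genes, which are not independent replicates). With the prefix series as a term, the fit rests on series B for luminal minus basal and on series A for mixed minus basal. Luminal 1 is the only luminal library of series B and basal 2 the only basal library of series A. Differences within a series thus have a single library on one side. Mixed and luminal libraries never share a series, so mixed minus luminal comes there only by way of basal libraries, and prefix and group cannot be told apart for it. In bulk RNA fewer cells of a type and less RNA per cell cannot be told apart.

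Set against each other per kilobase of exon, each of the 4 serpins was above both activators in basal and mixed aggregates, and 3 of them, all but Serpinf1, in luminal aggregates. In basal aggregates Serpinh1 stood at 238.7 ± 16.3 CPM per kilobase (SD, n = 3), Serpinb5 at 140.3 ± 37.7 and Serpine2 at 35.8 ± 1.25. Serpinf1 followed at 28.1 ± 10.7, with libraries that overlapped those of Serpine2. Plaur stood at 5.23 ± 2.26, Plat at 3.10 ± 0.465 and Plau last at 1.18 ± 0.509 CPM per kilobase, and no other neighbours in this order overlapped. In luminal aggregates Serpinb5 led at 100.9 ± 19.6 CPM per kilobase, overlapping Serpinh1 at 68.8 ± 17.5, and Plaur followed at 8.77 ± 0.651, above Serpine2 at 5.21 ± 0.21 in every library. Plau and Plat overlapped there at 0.907 ± 0.761 and 0.694 ± 0.22, and Serpinf1 was last at 0.120 ± 0.104. In mixed aggregates Serpinb5 was first at 207.9 ± 1.93 and Serpinh1 second at 97.2 ± 12.5. Serpine2, Serpinf1 and Plaur followed at 15.1 ± 4.64, 10.7 ± 2.78 and 6.26 ± 2.8, where Serpine2 overlapped Serpinf1 and Serpinf1 overlapped Plaur. Plau and Plat were again last and overlapped.

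The 4 member serpins made up most of the serpin transcripts of these cells. Per kilobase they took 90.9% ± 0.571 of the summed level of all 69 gene names that start with Serpin in basal, 89.1% ± 0.911 in mixed and 84.1% ± 1.27 in luminal aggregates (SD, n = 3 each). Which serpin led differed. Serpinh1 took 49.3% ± 6.63 in basal, 26.1% ± 2.3 in mixed and 33.0% ± 4.14 in luminal aggregates, and Serpinb5 took 28.5% ± 5.13, 56.0% ± 2.15 and 48.5% ± 3.33. The ranges of basal libraries (25.3% to 34.4% for Serpinb5) did not overlap those of the other groups. The inhibitor Serpine2 exceeded its targets in every library. Its ratio to Plau plus Plat per kilobase was 7.46 to 9.10 in basal, 2.13 to 4.99 in luminal and 7.83 to 15.6 in mixed libraries.

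**Figure D1:**
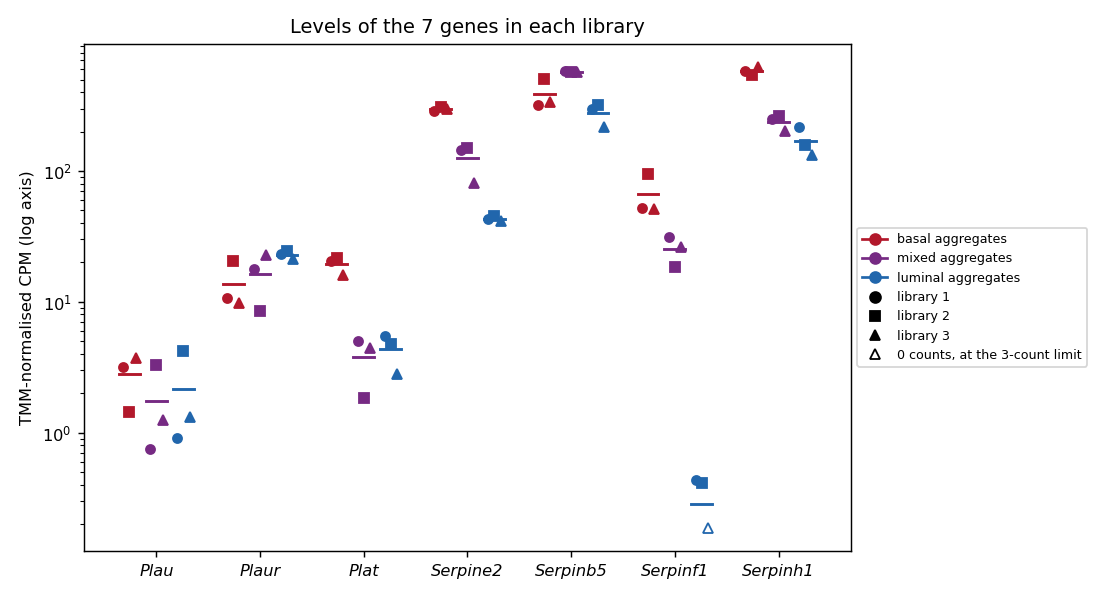
TMM-normalised CPM (log axis) of the 7 genes in each of the 9 libraries, coloured by group, with bars at the group means and symbols for the library number. Serpinf1 spans the widest range, from 95.6 CPM in basal 2 to 0 counts in luminal 3, which is drawn open at its limit of 0.187 CPM.

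Luminal aggregates had less Plat, Serpine2, Serpinf1 and Serpinh1 than basal aggregates, while urokinase, its receptor and maspin did not pass the test. By edgeR's quasi-likelihood test over all 9 libraries, with Benjamini-Hochberg adjustment over 18051 genes and a threshold of 0.05, 4 of the 7 genes were lower and 0 higher, where 14.4% of all tested genes were lower, 12.8% higher and 27.1% called either way. Before adjustment edgeR's p was 0.07 for Plaur and 0.046 for Serpinb5. Luminal and basal libraries did not overlap for 5 genes that were lower and for 1 that was higher, against 23.4% and 23.2% of all genes. The median log2 difference was -1.79 over the 7 genes and -0.02 over all tested genes.

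Mixed aggregates had less of the same 4 genes than basal aggregates and more Serpine2, Serpinb5 and Serpinf1 than luminal aggregates. Against basal aggregates 4 genes were lower and 0 higher (7.33% and 6.39% of all tested genes, 13.7% either way), and the libraries did not overlap for 4 lower genes and 1 higher gene (18.7% and 14.5% of all genes). Against luminal aggregates 3 genes were higher and 0 lower (15.2% and 14.2% of all tested genes, 29.4% either way), and the same 3 did not overlap (25.0% of all genes). The median over the 7 was -1.25 against basal and 0.50 against luminal aggregates, where all tested genes had medians of -0.07 and -0.05. These comparisons share libraries and are not independent of each other. None of the 7 passed as lying above or below both pure groups, which 9 and 7 of all tested genes did (0.0499% and 0.0388%). Serpinb5 came nearest (adjusted p = 0.3 in that edgeR test, 0.021 unadjusted), and without basal 2 it passed. Basal 2 is the only basal library of series A, so without it prefix and group cannot be told apart. Within series A mixed minus basal of Serpinb5 was 0.18 (adjusted p = 0.76 by edgeR).

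**Figure D2:**
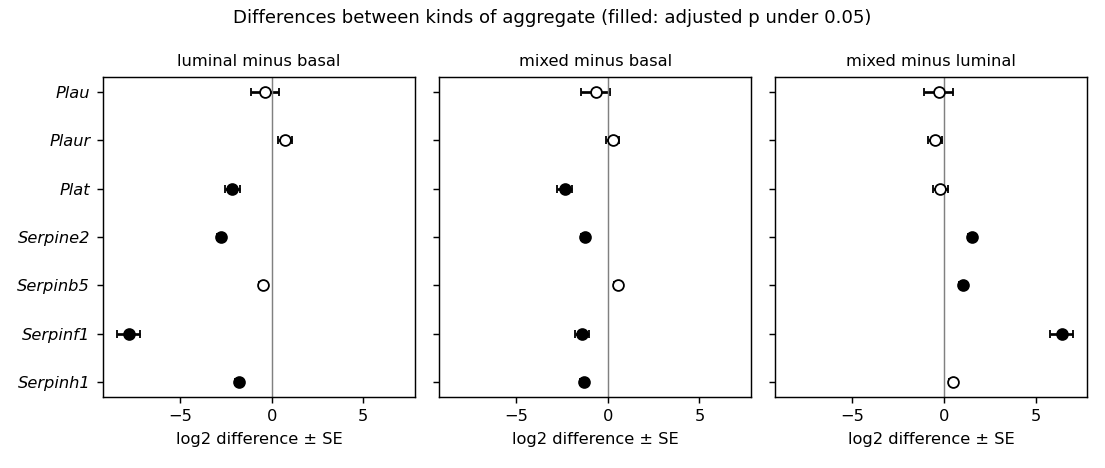
Log2 differences (x axis, points with SE) of the 7 genes (y axis) in the 3 comparisons from edgeR's fit over 9 libraries, filled where the adjusted p was under 0.05. The largest difference is that of Serpinf1 between luminal and basal aggregates at -7.80, and Plau is open in all 3 panels.

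Urokinase was scarce in every kind of aggregate. Plau stood at 3.20, 1.43 and 3.74 CPM in basal libraries 1, 2 and 3, at 0.917, 4.21 and 1.31 CPM in luminal 1, 2 and 3 and at 0.744, 3.26 and 1.25 CPM in mixed 1, 2 and 3, from 13 to 71 counts a library. The 3 groups overlapped, and the spread within each was as wide as any gap between them. The log2 difference of luminal minus basal was -0.38 ± 0.77 (SE), that of mixed minus basal -0.67 ± 0.78 and that of mixed minus luminal -0.29 ± 0.78, with adjusted p = 0.78, 0.6 and 0.8 in edgeR's test. Single libraries moved these values: the first was -1.32 without luminal 2 and -0.01 without luminal 1, and the second -1.49 without mixed 2 and -0.32 without mixed 1. With the prefix series as a term the first was -1.91 and the second 0.29, and none of these passed. At this level a difference would have to be large to be detected.

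The urokinase receptor was higher in luminal than in basal libraries without passing the test. Plaur, a receptor anchored to the membrane by a glycolipid, stood at 23.3, 24.4 and 21.1 CPM in luminal 1, 2 and 3, at 10.8, 20.5 and 9.83 CPM in basal libraries 1, 2 and 3 and at 17.8, 8.43 and 22.9 CPM in mixed 1, 2 and 3. Every luminal library lay above every basal one, basal 2 came close, and the mixed libraries spanned both. The difference of luminal minus basal was 0.74 ± 0.37 (adjusted p = 0.17), and without basal 2 it was 1.15 and passed (adjusted p = 0.043 by edgeR). Mixed minus basal was 0.26 ± 0.37 (adjusted p = 0.68), and mixed minus luminal -0.49 ± 0.37 (adjusted p = 0.35), where mixed 2 was the lowest of all 9 libraries. Without mixed 3 the former was -0.07. Of 8 immune markers, some of whose cells carry the receptor, the sum reached 49.1 CPM in basal 2 but 4.56 CPM in basal 1 and 4.03 CPM in basal 3. It was 22.4 to 53.8 CPM in luminal and 44.6 to 67.4 CPM in mixed libraries, with the pan-leukocyte gene Ptprc at no more than 0.744 CPM anywhere. The markers did not move together: the luminal sum was mostly Cd68, a lysosomal protein of macrophages, at 20.9 to 50.2 CPM, with Lyz2 and Cd74 at no more than 0.1245 and 1.19 CPM. In basal 2 Lyz2 and Cd74 stood at 15.4 and 27.3 CPM and Cd68 at 3.91 CPM. Mixed libraries, which share series A with basal 2, had Lyz2 at 8.30 to 33.7 CPM and Cd74 at 26.3 to 36.4 CPM. In basal 1 and basal 3 Lyz2 stood at 0.152 and 0.115 CPM and Cd74 at 1.88 and 0.6325 CPM. High Lyz2 and Cd74 thus followed the prefix series. The part of the immune markers in the Plaur values was not tested.

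Tissue plasminogen activator was higher in basal than in luminal or mixed aggregates. Plat stood at 20.4, 21.6 and 16.0 CPM in basal libraries 1, 2 and 3, at 5.45, 4.75 and 2.80 CPM in luminal 1, 2 and 3 and at 5.04, 1.85 and 4.47 CPM in mixed 1, 2 and 3. All basal libraries lay above all others, and mixed and luminal libraries overlapped. Luminal minus basal was -2.15 ± 0.4 (adjusted p = 0.0022 by edgeR), a level 4.45 times lower, and mixed minus basal was -2.35 ± 0.4 (adjusted p = 0.0043), 5.09 times lower. Mixed minus luminal was -0.20 ± 0.41 (adjusted p = 0.74). Within series B the first difference was -1.74 and did not pass (adjusted p = 0.13), and within series A the second was -2.51 and did (adjusted p = 0.028). Endothelial markers, of cells known to make Plat, summed over 8 genes to 8.05 to 12.5 CPM in basal, 4.21 to 8.28 CPM in luminal and 8.07 to 16.4 CPM in mixed libraries. Egfl7, the highest of the 8 in every library, stood at 6.44 to 8.74 CPM in basal, 3.02 to 4.23 CPM in luminal and 4.68 to 8.12 CPM in mixed libraries. Emcn was at 0 counts in 7 of the 9 libraries. Of 4 tested markers 0 were higher and 0 lower in luminal than basal aggregates (12.8% and 14.4% of all tested genes). The part of these markers in the Plat values was not tested.

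Serpine2, the inhibitor of both activators, formed 3 separate steps. It stood at 285.6, 306 and 299 CPM in basal libraries 1, 2 and 3, at 144.5, 149.9 and 80.8 CPM in mixed 1, 2 and 3 and at 43.3, 44.9 and 41.4 CPM in luminal 1, 2 and 3. No group overlapped another, and the pure groups were tight, with SDs of 10.4 and 1.74 CPM against 38.4 CPM in mixed libraries, where mixed 3 was low. Luminal minus basal was -2.78 ± 0.21 (adjusted p = 4.7e-06), 6.87 times lower, and mixed minus basal -1.25 ± 0.21 (adjusted p = 0.0038), both by edgeR. Mixed minus luminal was 1.53 ± 0.21 (adjusted p = 6e-04), and 1.46 without passing in the fit with the prefix series (adjusted p = 0.19). Within series B the first was -2.76 and within series A the second -1.29, with luminal 1 and basal 2 as the single libraries on one side.

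Maspin was highest in mixed aggregates, and its values also followed the prefix series. Serpinb5 stood at 318.7, 505.3 and 333.8 CPM in basal libraries 1, 2 and 3, at 297.7, 318.3 and 216.5 CPM in luminal 1, 2 and 3 and at 576.6, 572.3 and 566.1 CPM in mixed 1, 2 and 3. The 4 libraries of series A, basal 2 among them, lay at 505.3 CPM and above, and the 5 others at 333.8 CPM and below. Mixed minus luminal was 1.04 ± 0.21 (adjusted p = 0.005 by edgeR), 2.06 times higher, and 0.31 in the fit with the prefix series (adjusted p = 0.82). Mixed minus basal was 0.57 ± 0.21 without passing (adjusted p = 0.099), 0.79 without basal 2 (adjusted p = 0.0078) and 0.18 within series A (adjusted p = 0.76). Luminal minus basal was -0.48 ± 0.21 (adjusted p = 0.12), -0.59 with library size scaling (adjusted p = 0.023) and -0.13 within series B (adjusted p = 0.83). Prefix and group cannot be told apart for the level of this gene in mixed aggregates.

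Serpinf1 had the widest contrast of the set. It stood at 52.2, 95.6 and 51.1 CPM in basal libraries 1, 2 and 3, at 31.5, 18.4 and 26.0 CPM in mixed 1, 2 and 3 and at 0.432 and 0.415 CPM in luminal 1 and 2, with 0 counts in luminal 3. The 3 luminal libraries held 15 counts together, the basal ones 3653 and the mixed ones 1327, and no group overlapped another. Luminal minus basal was -7.80 ± 0.63 (adjusted p = 2e-06 by edgeR), or 224 times lower, and mixed minus luminal 6.42 ± 0.63 (adjusted p = 1.7e-05). Both also passed with the prefix series as a term, at -6.88 and 4.96 (adjusted p = 0.00038 and 0.02). Mixed minus basal was -1.39 ± 0.38 (adjusted p = 0.035), -1.92 within series A (adjusted p = 0.033) and -1.34 with the title number as a replicate block (adjusted p = 0.059). This call ended whenever a basal or a mixed library was left out: the differences ran from -1.04 without basal 2 to -1.59 without mixed 1. The adjusted p was then 0.058 without basal 1 or mixed 1, 0.06 without basal 2, 0.07 without basal 3, 0.1 without mixed 2 and 0.077 without mixed 3.

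Fibroblasts are a known source of Serpinf1, and the summed level of 8 fibroblast markers followed the same order of groups. This sum was 119.7 to 152.7 CPM in basal, 48.8 to 71.2 CPM in mixed and 6.76 to 11.01 CPM in luminal libraries. The matrix gene Fbln1 alone made up 90.5, 131.1 and 95.9 CPM of this in basal 1, 2 and 3. Of 6 markers tested 3 were lower and 0 higher in luminal than basal aggregates (14.4% and 12.8% of all tested genes). The 3 were Fbln1, Col1a2 and Col3a1. In mixed against basal aggregates only Fbln1 was lower (median of the list -0.09). Col1a2 averaged 5.16 CPM in basal, 6.13 CPM in mixed and 0 CPM in luminal libraries. Col3a1 averaged 2.89, 3.25 and 0.1245 CPM in turn. Lum and Dpt were not tested and stood at no more than 0.441 and 0.101 CPM in basal libraries. Dcn stood at 4.19 to 7.41 CPM in basal and 4.47 to 8.98 CPM in mixed libraries. The part of these markers in the Serpinf1 values was not tested.

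Serpinh1 was the most abundant member in basal aggregates. It stood at 583.4, 543.1 and 622.8 CPM in basal libraries 1, 2 and 3, at 248.1, 261.1 and 203 CPM in mixed 1, 2 and 3 and at 215.3, 157.4 and 131.8 CPM in luminal 1, 2 and 3. Basal libraries lay apart from all others, while luminal 1 reached into the mixed range. Luminal minus basal was -1.79 ± 0.2 (adjusted p = 5e-05 by edgeR), 3.47 times lower, and mixed minus basal -1.30 ± 0.2 (adjusted p = 0.0019), 2.46 times lower. Within their series they were -1.49 and -1.19, with luminal 1 and basal 2 as the single libraries on one side. Mixed minus luminal was 0.50 ± 0.2 (adjusted p = 0.08), and 0.71 without luminal 1 (adjusted p = 0.036).

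Since the mixture was made of equal parts, each of the 4 genes with a difference of at least 1 (log2) between pure aggregates can be placed on a scale from the luminal mean (0%) to the basal mean (100%) of CPM. Serpinf1 lay at 47.2%, 27.4% and 39.0% in mixed 1, 2 and 3, and Serpine2 at 40.0%, 42.1% and 14.8%. Serpinh1 lay lower, at 19.3%, 22.4% and 8.39%, and Plat at 4.69%, -16.6% and 0.888%, so that its mixed libraries sat at the luminal mean. The median position of the 3102 genes lower in luminal aggregates by this amount was 51.4%. Of those genes 9.25% had a mean position below that of Plat, 23.3% below Serpinh1, 35.2% below Serpine2 and 40.3% below Serpinf1. Against the average of the pure groups' means, mixed levels differed by -1.65 (log2) for Plat, -0.66 for Serpinh1, -0.44 for Serpine2 and -0.40 for Serpinf1. These positions are descriptions without a test, and the RNA content of the cell types was not measured.

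**Figure D3:**
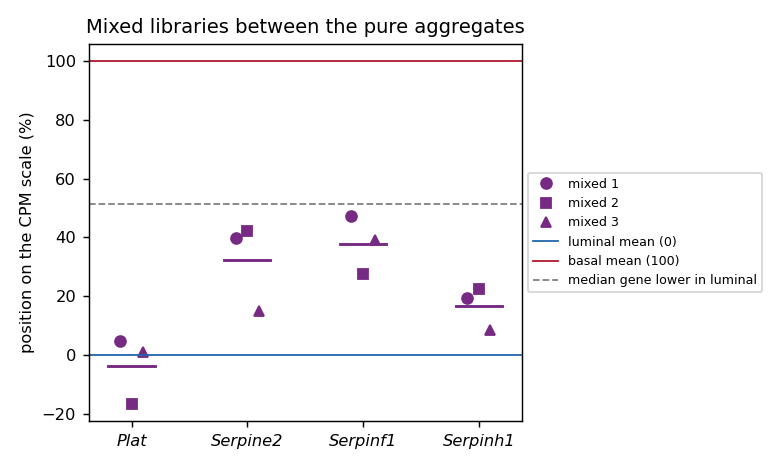
Position of each mixed library (points; bar, mean) on the CPM scale between the luminal mean (0%) and the basal mean (100%) for the 4 genes whose pure aggregates differed by 1 or more on the log2 scale. Every point lies below 51.4%, the median of genes lower in luminal aggregates (dashed), and Plat lies around the luminal mean.

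Patterns across the 9 libraries set the members into unlike pairs. Pearson's r of log2 CPM was 0.935 between Serpine2 and Serpinh1, 0.913 between Serpine2 and Serpinf1, 0.847 between Plat and Serpinh1 and -0.564 between Plau and Plaur, as a description over libraries that share groups. Among 10617 tested genes averaging 10 CPM or more the most similar to Serpinf1 were Rcn3 (r = 0.997), Palld and Tpm2 (0.996 each). For Serpine2 they were Pir (0.992), Plod2 (0.988) and Traip (0.987), and for Serpinh1 Nrg2 (0.985), Adcy7 (0.979) and Loxl3 (0.978). Serpinb5 was most like Sp1 (0.992), Snrpb2 and 4930453N24Rik (0.991 each). Levels of Serpinb5 also followed the prefix series, and whether those of its neighbours did was not tested. The 2 genes of lower level had looser neighbours: AW554918 (0.962), Irf2bp1 (0.956) and Ifrd2 (0.954) for Plat, and Coq10a (0.934), Btd (0.912) and Ank (0.904) for Plaur.

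The substrate of the activators, made mainly by the liver, was nearly absent from the RNA. Plg had 1 count in basal 3, 4 counts in luminal 3 and 0 in the 7 other libraries. Serpinb2 (PAI-2) was at 0 counts in 4 libraries and highest in mixed 2 at 2.52 CPM. Of 8 inhibitors other than Serpine2, 4 were tested, and 1 was lower in luminal aggregates (median -2.04, against -0.02 over all tested genes): Serpini1, neuroserpin, an inhibitor of Plat, at -3.29 ± 0.95 and only 2.79 CPM on average (adjusted p = 0.029 by edgeR, named after its value was seen). There were 0 calls in either mixed comparison by edgeR (medians 0.02 and 1.52). For this and all later lists, 12.8% of all tested genes were higher and 14.4% lower in luminal minus basal. The shares were 6.39% and 7.33% in mixed minus basal and 15.2% and 14.2% in mixed minus luminal. Of 12 plasminogen or coagulation factors, 3 were tested and 1 passed: F3, tissue factor, the starter of coagulation, stood at 25.5 to 48.0 CPM in basal, 147 to 242.7 CPM in mixed and 339.3 to 563.5 CPM in luminal libraries. Its luminal minus basal difference was 3.67 ± 0.29 (adjusted p = 6.7e-06 by edgeR).

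Of 6 genes for proteins that bind plasminogen at the surface, all but Itgam, at no more than 1.14 CPM in any group's mean, were tested. Anxa2, annexin A2, which with S100a10 binds plasminogen and Plat, stood at 1327 to 2256 CPM in luminal and 1549 to 1829 CPM in basal libraries (-0.06 ± 0.22, adjusted p = 0.88 by edgeR). Its partner S100a10 differed by -1.08 ± 0.3 between luminal and basal aggregates (adjusted p = 0.022) and by 1.29 ± 0.3 between mixed and luminal aggregates (adjusted p = 0.01). Of 5 tested genes of this list 2 were lower and 0 higher in luminal than basal aggregates (median -0.41). Against basal aggregates 0 were called in mixed ones (median 0.21), and against luminal ones 2 were higher (median 0.55).

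Receptors that bind or clear urokinase, its receptor and inhibitor complexes went both ways. Of 14 tested, luminal against basal aggregates gave 3 higher and 6 lower (median -0.31), mixed against basal 1 and 5 (median -0.37) and mixed against luminal 3 and 3 (median 0.13). Of all tested genes 12.8% were higher and 14.4% lower in the first comparison. In the second 6.39% and 7.33% were, and in the third 15.2% and 14.2%. Lrp1, the endocytic receptor that clears activators bound to serpins, Serpine2 included, stood at 137.7, 98.2 and 118.7 CPM in basal libraries 1, 2 and 3 and at 26.2, 7.36 and 9.03 CPM in luminal 1, 2 and 3. It lay between at 41.4, 50.7 and 38.9 CPM in mixed 1, 2 and 3, and no group overlapped another. Its differences were -3.05 ± 0.38 for luminal minus basal, -1.44 ± 0.38 for mixed minus basal and 1.62 ± 0.39 for mixed minus luminal (adjusted p = 0.00018, 0.03 and 0.011 by edgeR). The related receptor gene Lrp8 differed by -2.25 ± 0.31 in the first of these. Itgb3, the beta chain of the vitronectin receptor, and Sorl1, a sorting receptor, went the other way at 2.32 ± 0.21 and 1.77 ± 0.24.

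Serine proteases, most of them membrane-anchored, and Kunitz-type inhibitors of such proteases were higher in luminal aggregates. All 8 tested genes of this list were higher in luminal than in basal aggregates (median 1.34, against -0.02 over all tested genes), 3 were higher in mixed than in basal (median 0.63) and 5 lower in mixed than in luminal aggregates (median -0.81). Tmprss4 and Tmprss2, transmembrane proteases of epithelia, differed by 3.27 ± 0.32 and 2.86 ± 0.32 between luminal and basal aggregates. Matriptase (St14), another protease of epithelial surfaces, stood at a difference of 1.32 ± 0.19, and its inhibitor gene Spint1 at 1.36 ± 0.17 (adjusted p = 0.00036 and 0.00013 by edgeR). These last 2 were named after their values were seen. The receptor gene Met, whose ligand hepatocyte growth factor such proteases activate, differed by 1.53 ± 0.2 in a list of 4 with 1 higher and 1 lower (median -2.69), the lower one being the ligand gene Hgf itself with means of 1.42 CPM (basal) and 0.0208 CPM (luminal). In mixed aggregates that list had 1 higher and 0 lower against basal and 0 and 1 against luminal ones (medians -1.32 and 1.03).

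Collagens, whose folding Serpinh1 assists, were mostly lower in luminal aggregates, as was Serpinh1. Of 20 tested, 12 were lower and 1 higher than in basal aggregates (median -2), where 14.4% of all tested genes were lower and 12.8% higher. Col5a2 differed by -7.55 ± 0.57 and Col6a1 by -6.41 ± 0.85, and Col6a3 by 1.86 ± 0.39. In mixed aggregates 4 were lower and 2 higher than in basal ones (median -0.52), with Col7a1 at -2.01 ± 0.34 and Col4a2 at -1.41 ± 0.29, and 10 were higher and 0 lower than in luminal ones (median 1.34). Serpinh1 is also induced by heat shock, and of 12 heat shock genes luminal against basal aggregates gave 1 higher and 4 lower (median -0.33), mixed against basal 0 and 2 (median 0.12) and mixed against luminal 4 and 1 (median 0.32). The shares of all tested genes were 12.8% higher and 14.4% lower, 6.39% and 7.33%, and 15.2% and 14.2% in these comparisons. Hspa1a, the inducible chaperone, differed by 1.53 ± 0.21 and the mitochondrial chaperone gene Hspd1 by -1.14 ± 0.2 between luminal and basal aggregates.

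**Figure D4:**
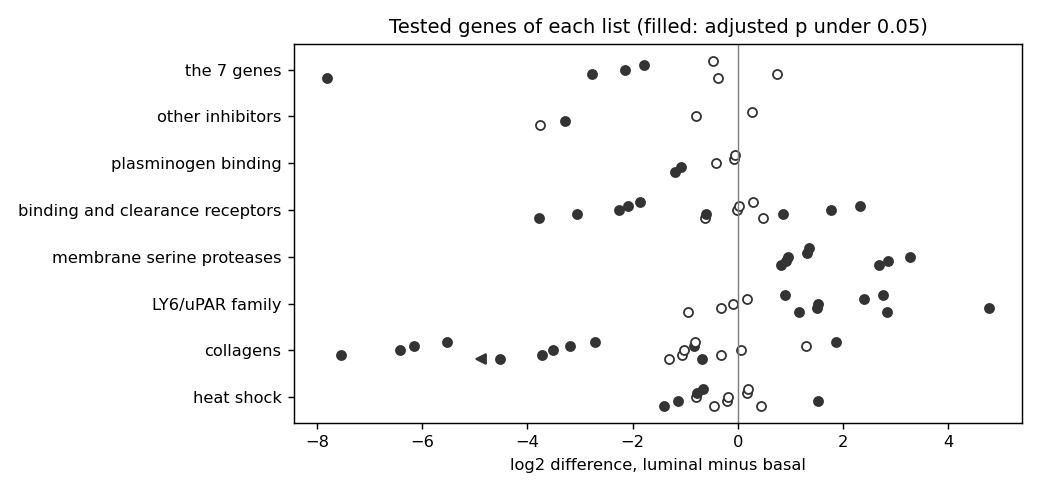
Log2 differences of luminal minus basal (x axis) of the tested genes in 8 lists (y axis), filled where the adjusted p was under 0.05, with a triangle for Col1a2, at 0 counts in luminal libraries and drawn at its bound of -4.88. The row of membrane serine proteases also holds their Kunitz-type inhibitors, and its 8 genes all lie above 0. Of 20 collagens 12 are filled and below 0.

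Among the tested serpin genes 0 passed as higher in luminal than in basal aggregates by edgeR. Of 69 gene names 24 were at 0 counts in all libraries and 18 were tested, the 4 members included. Of these, 9 were lower and 0 higher than in basal aggregates (median -1.72), Serpine2, Serpinf1 and Serpinh1 among them. Of all tested genes 14.4% were lower and 12.8% higher (median -0.02). In mixed aggregates 5 serpin genes were lower and 0 higher than in basal (median -0.51) and 6 higher and 0 lower than in luminal ones (median 0.83). Of all tested genes 7.33% were lower and 6.39% higher in the former comparison. In the latter 15.2% were higher and 14.2% lower. All luminal libraries lay above all basal ones for Serpinb8 without passing, at 13.7 to 22.0 against 10.7 to 13.2 CPM (0.60 ± 0.37, adjusted p = 0.28 by edgeR, named after its values were seen). Besides the members, Serpinb9, an inhibitor of granzyme B, was lower in luminal aggregates by a log2 difference of -1.12 ± 0.18 (adjusted p = 0.00089 by edgeR), with 17.8 CPM in luminal and 38.7 CPM in basal aggregates on average. Close serpin paralogues can share reads, and those with several alignments were not counted.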

How the data were processed

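RNA of 9 aggregate samples was sequenced from stranded mRNA libraries. The deposited table holds raw counts of read pairs per gene name, made by the authors with featureCounts 2.0.1 over exons, without the strand option and with no option to count reads of several alignments, per the file headers. Build mm39, Trim Galore and Subread are named in the submitters' processing notes. For the aligner's settings and the annotation release the sources used here give nothing. The table's summed exon lengths, deposited with it, served for levels per kilobase.

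In R 4.3.3 with edgeR 4.0.16, genes passing filterByExpr (18051) were scaled by TMM and fitted over all 9 libraries with group as factor (6 residual degrees of freedom, robust quasi-likelihood test, two-sided, Benjamini-Hochberg, 0.05). Group values are mean ± SD of TMM CPM without pseudocount. The prior count in correlations of log2 CPM was 2. Alternatives were other scalings and filters, DESeq2 1.42.0, limma-voom (limma 3.58.1), a threshold of 1.5-fold (glmTreat), fits on 2 groups at a time, a replicate block by title number, a term for the column prefix, and each library left out in turn. Replicate numbers come from the titles.

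The members, gene lists and tests were chosen with earlier results of these data known. Named from each list were up to 2 genes per direction and contrast (4 for serpins) with the largest called differences among those with a mean of at least 5 CPM, of which some are printed, and Plg, Serpinb2, Anxa2, S100a10 and Lrp1. Another gene of that rule is not reported here. For each member of at least 5 CPM, the 3 most similar genes were named. Promoter sequences are those of RefSeq on GRCm38.p6.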

Additional observations from a re-analysis of the deposited data

How the results depend on the processing

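Each of the 21 member differences was recomputed in up to 19 settings, and 9 kept their direction and their side of the threshold in all that could be fitted. Among these are Serpine2, Serpinf1 and Serpinh1 in luminal minus basal (ranges -2.92 to -2.76, -8.37 to -6.88 and -2.01 to -1.49) and Plat, Serpine2 and Serpinh1 in mixed minus basal (-2.62 to -2.04, -1.41 to -1.03 and -1.46 to -1.19). Plau did not pass the filter of 5 CPM in 3 libraries and has no value there. Signs turned only for differences that had not passed. With the prefix series as a term Plau was at 0.29 in mixed minus basal and at 2.20 in mixed minus luminal, and Plaur at -0.32 in mixed minus basal, where leaving out libraries gave -0.07 (without mixed 3) to 0.66 (without basal 2). In mixed minus luminal Plau ran from -1.10 (without mixed 2) over 0.07 (without mixed 1) to 0.64 (without luminal 2), and Plat from -0.46 (without mixed 1) to 0.12 (without mixed 2). The mean position of Plat ran from -9.25% (without luminal 3) to 0.0538% (without luminal 1). The position of Serpinf1 was 48.7% without basal 2. The cause of these changes was not tested.

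The number of members called higher in luminal minus basal was 0 to 1 over the left-out libraries (Plaur without basal 2), and that in mixed minus basal 0 to 1 (Serpinb5 without basal 2) and 1 with DESeq2. Over the left-out libraries members called lower numbered 4 in luminal minus basal and 3 to 4 in mixed minus basal, and 3 to 4 were higher in mixed minus luminal. In luminal minus basal 5 were lower with library size scaling and 3 with the prefix series as a term. In mixed minus luminal 1 was higher with that term and 2 against a 1.5-fold change. Members above or below both pure groups numbered 0 to 1 (Serpinb5 without basal 2). Without basal 2 prefix and group cannot be told apart for mixed minus basal. Against a 1.5-fold change Serpinb5 in mixed minus luminal and Serpinf1 in mixed minus basal no longer passed (adjusted p = 0.054 and 0.13).

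Libraries that carry the same title number showed no common deviation (r from -0.17 to 0.20, 4 of 9 libraries correlating best with their own number). The title numbers were not taken to pair them. The column names number all luminal and some basal libraries otherwise, and a pairing by those numbers was not examined. With the replicate block 4 members were lower in luminal minus basal and 3 in mixed minus basal, and 3 were higher in mixed minus luminal. Library size scaling moved the median gene of luminal minus basal from -0.02 to -0.17 and that of mixed minus basal from -0.07 to -0.22, while higher genes made up a share of the calls that went from 47.0% to 35.0% and from 46.5% to 33.6%. With the prefix series as a term 1280 genes were higher and 1227 lower in luminal minus basal (2304 and 2595 without it), 529 and 324 in mixed minus basal (1153 and 1324) and 370 and 121 in mixed minus luminal (2749 and 2560). Against a 1.5-fold change the 3 comparisons gave 1257 and 1628, 510 and 388, and 1279 and 964. Mixed minus basal gave 1664 and 2340 with DESeq2, 1713 and 2190 with no filter beyond 1 count, 2627 and 2493 without basal 2, 706 and 470 without basal 1, 558 and 405 without basal 3, 798 and 865 without mixed 2 and 889 and 838 without mixed 3. Mixed minus luminal gave 1623 and 1620 without luminal 1 and 1550 and 1417 without luminal 3. Plau, with 13 to 71 counts a library, is the member most limited by depth.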

Other observations

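Plaur belongs to a family of small proteins, the LY6/uPAR family, whose other members were mostly higher in luminal aggregates. Of 12 tested genes listed with it, 8 were higher and 0 lower than in basal aggregates (median 1.34, against -0.02 over all tested genes). Pinlyp differed by 2.75 ± 0.25 (adjusted p = 1.7e-05 by edgeR). Plet1, counted in this list though not a protein of the family, differed by 2.84 ± 0.22 (adjusted p = 5.9e-06 by edgeR). In mixed aggregates 4 were higher and 0 lower than in basal ones (median 0.74), Plet1 at 2.56 ± 0.22 and Ly6a at 1.83 ± 0.28. Against luminal aggregates 1 was higher and 2 lower (median -0.47), with Pinlyp at -2.60 ± 0.25, a mean of 13.5 CPM in mixed against 82.1 CPM in luminal aggregates.

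Among the mixed libraries Serpinb5 had an SD of 5.3 CPM around 571.7 CPM, and among the basal ones an SD of 104 CPM around 386 CPM.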
